A study of Mus musculus with 13 samples.

Results

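The nuclear-encoded subunits of the respiratory chain were followed through mouse heart development in single-cell RNA sequencing data. The set held 73 of the 27998 genes in the count matrices and was chosen by symbol: genes beginning with Ndufa, Ndufb, Ndufc, Ndufs, Ndufv, Uqcr or Atp5, together with Sdha, Sdhb, Sdhc, Sdhd, Cyc1, Cox5a, Cox5b, Cox6b1, Cox6c, Cox7b and Cox7c. Genes of assembly factors (Ndufaf), Ndufa4l2 and pseudogenes were left out. By symbol, 37 genes belonged to complex I, 4 to complex II, 9 to complex III, 6 to complex IV and 17 to complex V. The rule reads symbols alone, although the set was proposed with earlier results of these data known. All cells came from wild-type C57Bl/6J mice without any treatment. Embryos at E8.5 and E10.5 had lost head and limbs before digestion, so their cells come from the trunk as well as the heart, whereas hearts alone were digested from E12.5 on (E14.5 and E16.5, then P3, the third day after birth). The embryonic stages from E10.5 to E16.5 had 2 libraries each, and replicate 1 of E16.5 pooled 2 sample records. E8.5 was represented by 1 library (replicate 2, replicate 1 not analysed here) and P3 by 1 matrix of 2 pooled sample records, and neither entered a test.

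The respiratory chain passes electrons from NADH through complex I, and from succinate through complex II, to complex III, and then through cytochrome c to complex IV, which reduces oxygen. Complexes I, III and IV pump protons across the inner mitochondrial membrane, and complex V, the ATP synthase, uses the gradient to make ATP. Most subunits are encoded in the nucleus and imported, while a small set, including some core subunits of complexes I, III and IV, is encoded by the mitochondrial genome. Cardiomyocytes beat without rest and are among the cells richest in mitochondria. They shift from glycolysis towards oxidative metabolism as the heart matures.

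A barcode was analysed when it held at least 2000 UMIs (unique molecular identifiers, each standing for 1 captured transcript) and at least 1% of them from the 13 mitochondrially encoded protein genes, here called the mt- share. Barcodes with at least 1500 CPM (the usual scaling of counts to the depth of a cell) of Tnnt2, the cardiac troponin T gene, were taken as cardiomyocytes, and all others as other cells. This gave 23830 cardiomyocytes among 67411 cells. The matrices held between 67141166 and 259041468 UMIs. Cardiomyocytes numbered 119 in E8.5, 108 and 99 in E10.5, and between 1733 and 3607 per library from E12.5 to E16.5, with 7145 at P3. All 12 further cardiomyocyte markers, Actc1 and Myh6 among them, were higher in cardiomyocytes than in other cells at each tested stage. At E10.5 the class was thin: 85.2 and 73.7% of its cells lay between 1500 and 3000 CPM of Tnnt2, against 7.35 and 6.78% at E16.5. Other cells at E12.5 carried 2402 and 2916 nuclear CPM of the 12 cardiomyocyte markers (CPM of nuclear-encoded UMIs, with the mitochondrially encoded ones left out of the total), against 45122 and 42755 in cardiomyocytes. In other cells of E10.5 this sum was 218 and 249, in those of E14.5 1415 and 1590, and in those of E16.5 1434 and 1341. Up to 1.44 times as many barcodes as random draws would give were shared between libraries.

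Levels below are nuclear CPM. Each UMI counts 1 transcript end whatever the length of the transcript, so levels were not divided by length. Averaged over the 6 heart libraries of E12.5 to E16.5, 35 of the 73 genes stood at 1000 or more in cardiomyocytes, 36 between 100 and 1000, and 2 below 100. The lowest were Atp5s at 13.7 and Atp5sl at 38.4, which carry the prefix but are not structural subunits of the ATP synthase. In complex I the highest mean levels were those of Ndufa4 (2303), Ndufc1 (1682) and Ndufa2 (1441), none of them a core subunit. Ndufa4 keeps its complex I symbol although its protein has since been assigned to complex IV. Complex II was led by Sdhb (614), which carries the iron-sulfur clusters, and by the membrane anchors Sdhd (325) and Sdhc (307). The small subunits Uqcr11 (2631) and Uqcr10 (2609) and the hinge protein Uqcrh (2448) led complex III. Among the 6 genes of complex IV in the set, the small subunits Cox6c (4484), Cox7c (4330) and Cox6b1 (2864) led. Complex V was led by Atp5g1 (3565), the epsilon subunit Atp5e (2873) and subunit f, Atp5j2 (2512). Outside the set, Cox8a of complex IV averaged 4103 CPM of all UMIs in these libraries, against 4041 for Cox6c. On that scale Cox4i1 (3059) and Cox7a2 (2747) stood above Cox6b1 (2586). The last transcript bases of 29 of the 73 genes share a stretch of 50 bases with another annotated gene, and for 11 genes over 100 such stretches were shared, among them Atp5g1, Atp5g2, Atp5h, Atp5o, Cox5b, Cox7c and Ndufab1. How the counting divided reads of these genes is not given in the sources used here, and their counts are uncertain to that extent.

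The 3 genes of ATP synthase subunit c are shown with their upstream sequence because they make the same product and their levels are set side by side further on. Atp5g1, Atp5g2 and Atp5g3 all encode subunit c, the protein that forms the rotating ring of the ATP synthase, and differ in their import sequences and in their regulation. The stretches end just before the start of the annotated transcripts and are given 5′ to 3′ on the gene's strand, from RefSeq on build GRCm38.p6. Capitals mark a match to a motif. The Atp5g1 stretch lies at chr11:96075671-96075881 on the minus strand, that of Atp5g2 at chr15:102671128-102671297 on the minus strand, and that of Atp5g3 at chr2:73911327-73911576 on the minus strand. Uqcr11, at chr10:80406831-80407071 on the minus strand, is added as the gene with the largest change between E14.5 and E16.5.
Atp5g1: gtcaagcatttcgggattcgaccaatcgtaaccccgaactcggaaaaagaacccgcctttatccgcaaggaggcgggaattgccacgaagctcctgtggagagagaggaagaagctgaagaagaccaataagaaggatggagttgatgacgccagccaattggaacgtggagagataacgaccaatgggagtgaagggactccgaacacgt
Atp5g2: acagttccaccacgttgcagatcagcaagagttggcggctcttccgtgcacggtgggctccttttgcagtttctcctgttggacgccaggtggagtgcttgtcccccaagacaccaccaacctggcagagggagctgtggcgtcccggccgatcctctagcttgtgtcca
Atp5g3: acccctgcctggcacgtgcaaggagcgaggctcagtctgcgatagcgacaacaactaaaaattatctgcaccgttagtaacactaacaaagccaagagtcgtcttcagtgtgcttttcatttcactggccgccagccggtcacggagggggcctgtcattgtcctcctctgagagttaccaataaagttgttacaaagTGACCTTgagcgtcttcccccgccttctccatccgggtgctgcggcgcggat
Uqcr11: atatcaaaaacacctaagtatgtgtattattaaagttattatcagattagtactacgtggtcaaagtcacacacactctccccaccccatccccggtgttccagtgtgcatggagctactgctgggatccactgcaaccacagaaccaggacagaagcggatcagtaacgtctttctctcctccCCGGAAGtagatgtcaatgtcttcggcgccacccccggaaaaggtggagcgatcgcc

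The capitals in Atp5g3 are the reverse complement of AAGGTCA, the core element bound by the estrogen-related receptors (ERR), and those in Uqcr11 are CCGGAAG, bound by ETS factors such as GABP. Both motifs were searched on both strands from 250 bases before to 50 bases after the start, along with the YY1 motif AAGATGGCG and the NRF1 motif in 2 forms, a palindrome and a sequence that differs from it at 1 base and is not palindromic. RefSeq promoters matched 62 of the 73 genes. CCGGAAG was present in 13 of them (21.0%), against 9.12% of all 27025 promoters. Either NRF1 form was found in 8 (12.9% against 2.36%), AAGGTCA in 8 (12.9% against 4.66%) and AAGATGGCG in 7 (11.3% against 1.49%). Each of these is a match of letters, not a site shown to be bound. Atp5g2 holds an NRF1 match inside the searched window but after the printed stretch.

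In cardiomyocytes the summed share of the 73 genes rose with stage. At E8.5 they made up 5.03% of nuclear-encoded UMIs. The libraries of E10.5 gave 5.24 and 5.35%, those of E12.5 gave 8.01 and 7.80%, those of E14.5 gave 8.44 and 8.49%, and those of E16.5 gave 12.15 and 11.72%. P3 gave 13.46%. Taken over all its cardiomyocytes, every library of a later stage lay above all libraries of earlier stages. For P3 this held with 4464 of its 7145 cardiomyocytes at an mt- share of 20% and above, the study's upper limit for that stage. At an mt- share of 5 to 10% P3 gave 8.67%, against 11.82 and 11.45% in E16.5. At 10 to 15% it gave 10.54%, against 12.75 and 12.24%, and at 1 to 5% it was also lower. From 15% on it lay above both E16.5 libraries. Earlier stages also changed order at a like mt- share. E14.5 lay above E12.5 up to 10%, but below it at 10 to 15% (8.33 and 8.58% against 8.94 and 8.65%) and beyond. At 1 to 5%, E8.5 (5.01%) lay between the E10.5 libraries (4.98 and 5.18%). In other cells the share of the 73 genes stayed between 2.61 and 3.27% at every stage, with the highest values at E12.5 (3.25 and 3.27%). The exact 95% binomial interval (Clopper-Pearson) of the cardiomyocyte sum with the fewest UMIs ran from 5.31 to 5.39%, which covers counting error only. The stage means in cardiomyocytes were 5.29% ± 0.082 (SD, n = 2) at E10.5, 7.91% ± 0.15 at E12.5, 8.47% ± 0.035 at E14.5 and 11.93% ± 0.31 at E16.5. The mt- share of the same sums was 2.78% for E8.5, 4.51 and 4.32% for E10.5, 6.97 and 7.31% for E12.5, 9.22 and 9.01% for E14.5, 11.78 and 11.83% for E16.5 and 21.4% for P3. With the mt- share at 21.4% at P3, the 73 genes made up 10.6% of all UMIs there, between the 10.7 and 10.3% of E16.5. The 2 libraries of a stage are not stated to come from separate litters, so the p-values that follow measure the spread between these libraries, which may be technical.

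All 5 complexes shared in the rise. The genes of complex I, which oxidises NADH, took up 1.63 and 1.68% of nuclear-encoded UMIs in the E10.5 cardiomyocytes, 3.75 and 3.60% in those of E16.5 and 4.21% in P3. Complex II, the only one that is also an enzyme of the tricarboxylic acid cycle, had by far the smallest share, with 0.0630 and 0.0634% in E10.5, 0.190 and 0.192% in E16.5 and 0.244% in P3. Complex III went from 0.782 and 0.786% in E10.5 to 1.72 and 1.64% in E16.5, and complex IV from 1.04 and 1.08% to 2.53 and 2.44%. Within the set, the ATP synthase genes held the largest share of the 5 from E10.5 on. They took up 1.72 and 1.74% in E10.5, 3.96 and 3.84% in E16.5 and 4.36% in P3. The ranking depends on the symbol rule, since 8 further nuclear genes of cytochrome oxidase, counted as a list further on, were outside complex IV here. Summed, these 8 stood at 9215 and 9557 nuclear CPM in E10.5, 20545 and 19833 in E16.5 and 22315 in P3. For each complex both E16.5 libraries lay above both E10.5 libraries.

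**Figure D1:**
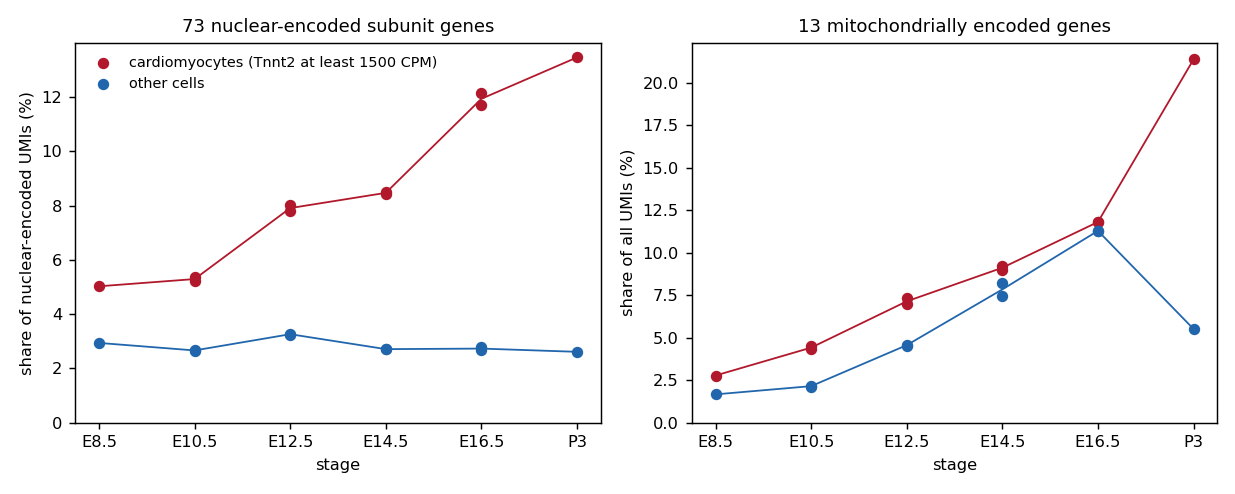
Each point is 1 library or matrix: left, the share of nuclear-encoded UMIs from the 73 subunit genes; right, the share of all UMIs from the 13 mitochondrially encoded genes, by stage, in cardiomyocytes (red) and other cells (blue), with lines through stage means. The nuclear share climbed in steps in cardiomyocytes, from 5.03% at E8.5 to 13.46% at P3, and stayed between 2.61 and 3.27% in other cells.

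Between E10.5 and E12.5 most subunit genes rose in cardiomyocytes. With edgeR's quasi-likelihood test on UMI sums per library, 69 of 73 were higher at E12.5 and 0 lower, with a median log2 fold change of 0.67. Over all 14483 genes tested, 16.2% were called higher and the median was 0.07. By complex, the median log2 fold change per gene was 1.15 for the 4 genes of complex II, 0.73 for complex I, 0.67 for complex III, 0.58 for complex IV and 0.56 for complex V. The summed shares, in which abundant genes weigh most, ranked differently. Complex V went from a mean of 1.73 to 2.65% of nuclear-encoded UMIs, a larger ratio than that of complex III, which went from 0.784 to 1.10%. Ndufv1, the subunit that binds NADH, stood at 57 and 42 nuclear CPM at E10.5 and at 187 and 184 at E12.5, a log2 fold change of 1.95 (SE 0.12, edgeR adjusted p = 2.17e-09). Uqcrc1, a core protein of complex III, went from 125 and 119 to 375 and 356 (log2 fold change 1.63, SE 0.10, edgeR adjusted p = 1.01e-09). The iron-sulfur subunit Ndufs1 went from 45 and 38 to 111 and 120, a log2 fold change of 1.51. In every one of these genes both E12.5 libraries stood well above both E10.5 libraries. Uqcrc2, the partner of Uqcrc1, followed with a log2 fold change of 1.48. Atp5b, the catalytic beta subunit of the ATP synthase, rose from 764 and 710 to 1961 and 1982 (1.47). Sdha, the flavoprotein of succinate dehydrogenase, rose from 93 and 92 to 216 and 238 (1.35). These 6 genes have transcripts of 1653 to 2900 bases. Lengths here and below are those of the longest annotated transcript of a gene, protein-coding where there was one. The transcripts counted may be shorter. Over the 73 genes, the fold change and the transcript length had a Spearman correlation of 0.60, against 0.03 over 14448 genes. The points share the same 4 libraries, and the correlation is a description.

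At the other end of this comparison, Ndufa7 showed no detectable difference. Its levels were 738 and 784 at E10.5 and 733 and 739 at E12.5 (log2 fold change 0.00, edgeR adjusted p = 0.976). Ndufs5 (log2 fold change 0.13, adjusted p = 0.28), Uqcrh (0.22, adjusted p = 0.062) and the scarce Atp5s (0.54, adjusted p = 0.13) also missed the threshold in edgeR. The stage difference cannot be told apart from the change of tissue, from embryo without head and limbs to heart, or from the thinner cardiomyocyte class at E10.5. With cardiomyocytes taken at 3000 CPM of Tnnt2 and above, or under any other alternative tried, between 58 and 72 of the genes were called, all higher. The 3000 CPM setting left only 16 and 26 cardiomyocytes in the E10.5 libraries. Of the 12 cardiomyocyte markers, 9 were also called higher and 2 lower at E12.5, with a median log2 fold change of 0.57. Their summed level went from 36926 and 40413 nuclear CPM to 45122 and 42755, and its part in the rise of the subunit genes was not tested. Markers of other cell types moved in the same cardiomyocyte sums. Of 7 erythroid markers 6 were higher (median 3.31), with sums of 562 and 582 nuclear CPM in E10.5 and 3420 and 5118 in E12.5. Of 4 endothelial markers 3 were higher and 1 lower (median 2.37), although their sums, 40.0 and 26.3 in E10.5, were 35.6 and 33.0 in E12.5. The 3 neural markers tested were lower (median -4.24), with sums of 47.0 and 39.1 falling to 1.38 and 1.68. With cardiomyocytes that passed an erythroid, endothelial, mesenchymal or macrophage gate left out, together with all cells above the globin limit, 70 subunit genes were called higher and 0 lower.

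From E12.5 to E14.5 the nuclear genes hardly moved. Only 2 of 73 were called higher and 0 lower, while 18.2% of all genes tested were called higher and 15.9% lower. The median log2 fold change over the 73 was 0.06. At an unadjusted p under 0.05 there were 8 of the 73 genes, against 6252 of all 14483 genes tested. Ndufa1, a small membrane subunit of complex I, read 357 and 452 at E12.5 and 474 and 490 at E14.5 (log2 fold change 0.23, SE 0.09, edgeR adjusted p = 0.0477). Cox6c, a small subunit of complex IV, read 3190 and 3422 at E12.5 and 3937 and 3949 at E14.5 (0.23, SE 0.08, edgeR adjusted p = 0.0302). Neither gene's libraries overlapped between the stages. For 42 genes both E14.5 libraries lay above both E12.5 libraries, a pattern shown by 36.9% of all genes, and for 2 genes both lay below (30.2% of all genes). The count of calls depended on single libraries. Without replicate 1 of E12.5, 17 genes were called higher, without replicate 2 of E12.5, 4 higher and 2 lower, and without either library of E14.5, 0. The 2 libraries of E12.5 differed for some short transcripts. Atp5k, which encodes subunit e of the ATP synthase, stood at 1439 in replicate 1 and at 2201 in replicate 2, on either side of the 1957 and 2017 at E14.5.

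The mitochondrially encoded genes were counted in the same comparison. Of the 13, 11 were called higher at E14.5 and 0 lower, with a median log2 fold change of 0.37. mt-Co1, the catalytic subunit of complex IV, rose by 0.54 on the log2 scale (SE 0.08, edgeR adjusted p = 5.19e-05). Between 9 and 13 of the 13 were called higher under every alternative that kept these genes. Markers of other cell types moved in the same sums: 3 of 4 mesenchymal (median 0.54) and 4 of 5 macrophage markers (3.14) were higher and 3 of 4 epicardial ones lower (-0.87), while 2 of 12 cardiomyocyte markers were higher and 4 lower. With cardiomyocytes that passed another class's gate left out, all 13 mitochondrially encoded genes were called higher. The difference between the nuclear and the mitochondrial set was not itself tested.

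From E14.5 to E16.5 every subunit gene rose in cardiomyocytes. All 73 were called higher by edgeR, with log2 fold changes from 0.23 to 1.07 and a median of 0.63. Of all genes tested, 19.9% were called higher and 19.2% lower, and the median was -0.01. Cardiomyocyte markers moved in the same comparison: 8 of 12 were called higher and 1 lower, with a median of 0.43, and their sum went from 39158 and 39693 nuclear CPM to 42351 and 42926. Tnnt2, which defined the class, rose from 4898 and 5050 CPM of all UMIs to 7077 and 7221. All 4 mesenchymal markers were higher too (median 0.91), with sums of 66.7 and 61.3 nuclear CPM in E14.5 and 119.95 and 88.1 in E16.5, and of 7 erythroid markers 4 were higher and 3 lower. The part of the cardiomyocyte markers' shift was not tested. With cardiomyocytes that passed another class's gate left out, all 73 subunit genes were called higher. The complexes moved alike, with medians of 0.64 for complex I, 0.63 for complex II, 0.60 for complex III, 0.70 for complex IV and 0.57 for complex V. Uqcr11 led, with 2037 and 2038 nuclear CPM in E14.5 and 3896 and 3762 in E16.5 (log2 fold change 1.07, SE 0.08, edgeR adjusted p = 8.28e-09). Ndufa1 rose from 474 and 490 to 836 and 858 (0.97, SE 0.09, edgeR adjusted p = 1.24e-07). Ndufa11, a membrane-arm subunit of complex I, rose from 803 and 800 to 1341 and 1270 (0.86). In these genes the libraries of the stages were far apart compared with the distance within a stage. Ndufb10 (0.85), Atp5k (0.83) and Cox6c (0.81) completed the 6 largest changes, and Cox6c reached 6379 and 6024 at E16.5, the highest level of any subunit gene at that stage. The 6 transcripts are 371 to 918 bases long, and the Spearman correlation of fold change with length over the 73 genes was -0.29. The smallest changes were those of Atp5sl (0.23), Atp5g2 (0.26), Atp5s (0.37) and Ndufa9 (0.38). Scaling bears on the size of the shift. With library totals in place of TMM factors, the median of all genes moved to -0.21 and the share of calls that were higher fell from 50.9 to 20.03%. The subunit genes then had a median of 0.43, so they stood 0.64 above the median of all genes under either scaling, and between 70 and 73 of them were called higher under all alternatives.

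**Figure D2:**
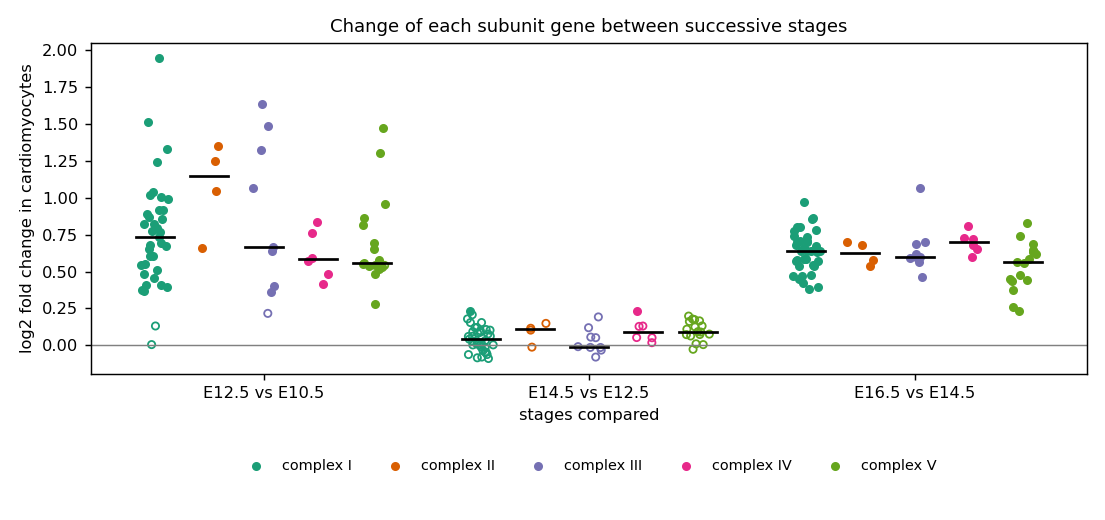
Each point is the log2 fold change of 1 subunit gene in cardiomyocytes between successive stages, coloured by complex; filled points passed edgeR at an adjusted p of 0.05, open points did not, and bars mark medians. Medians were 0.67 and 0.63 in the first and the last comparison, and from E12.5 to E14.5 the genes lay between -0.09 and 0.23.

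Over the whole span from E12.5 to E16.5, all 73 genes were called higher (29.6% of all genes were), with a median log2 fold change of 0.67. Ndufa1 had the largest change (1.20), followed by Uqcr11 (1.05), Cox6c (1.04), Ndufa11 (1.04), Ndufb10 (1.01) and Atp5k (0.94), and Atp5g2 the smallest (0.23, edgeR adjusted p = 0.019). In the same sums 8 of 12 cardiomyocyte markers were higher and 3 lower (median 0.47), all 4 mesenchymal (1.45) and all 5 macrophage markers (3.67) were higher, and of 7 erythroid markers 4 were higher and 3 lower. With cardiomyocytes that passed another class's gate left out, all 73 subunit genes were called higher.

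The stages with a single matrix extend the series without a test. At P3, 61 of the 73 genes were above the mean of the E16.5 libraries, with a median log2 ratio of 0.21 against 0.07 over all genes. These ratios take in all 7145 P3 cardiomyocytes, of which 2681 passed the study's mt- ceiling, and were not computed under that ceiling. In each group below an mt- share of 15%, the summed P3 share lay under both E16.5 libraries, as given above. The summed markers of cardiomyocytes read 52658 nuclear CPM at P3, against 42351 and 42926 in E16.5. The mesenchymal ones read 232 against 119.95 and 88.1, and the erythroid ones 1222 against 5081 and 7176. The part of these markers in the difference was not tested. Only 6 genes exceeded a 1.5-fold difference, all higher, while 20.3% of all genes exceeded it upwards and 18.9% downwards. Those 6, named after their values were seen, were Ndufv1 (523 against a mean of 279), Ndufa9 (352 against 188), Sdha (647 against 360), the ATP synthase alpha subunit Atp5a1 (2698 against 1631), Uqcrc1 (769 against 499.7) and Ndufs1 (253 against 165). Of these, 4 were also among the 6 largest changes from E10.5 to E12.5. Ndufc1 (1675 against 2120) and Atp5k (2550 against 3170) were lower. In the 2 barcode sets of the P3 matrix, cardiomyocytes gave 13.6 and 13.1%. At E8.5, 39 of 73 genes lay above the E10.5 mean, with a median log2 ratio of 0.04 against -0.18 over all genes. More than 1.5-fold higher were Uqcrb (1024 against 660) and Atp5f1 (871 against 571), and lower were Atp5e (1116 against 1772) and Sdha (61 against 92). Over all genes, 12.7% were over 1.5-fold higher at E8.5 and 31.3% lower.

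Cardiomyocytes were set against other cells of the same libraries at each stage. Other cells came from embryos without head and limbs at E10.5 and from hearts from E12.5 on. A change in the class difference from E10.5 to E12.5 thus cannot be told apart from that change of tissue. At E10.5, 60 of the 73 genes were higher in cardiomyocytes and 0 lower, where 16% of all 16473 genes tested were called higher, and the median log2 difference was 0.58. The median over all genes was -0.40, so the subunit genes stood 0.98 above it. With library totals in place of TMM factors these medians were 0.83 and -0.15, 68 subunit genes were called higher, and the share of all calls that were higher went from 35.8 to 50.3%. The 13 without a call included Ndufv1 (log2 difference -0.10, edgeR adjusted p = 0.59), Uqcrc1 (-0.11, adjusted p = 0.325) and Sdhb (0.05, adjusted p = 0.689), none of which passed edgeR. These differences are on the TMM scale. In nuclear CPM Uqcrc1 stood at 125 and 119 in cardiomyocytes and at 107 and 108 in other cells, Sdhb at 223 and 244 against 182 and 186, and Ndufv1 at 57 and 42 against 43.0 and 44.0. From E12.5 on all 73 were called higher in cardiomyocytes. The median log2 difference was 1.28 at E12.5 (34.7% of all genes called higher), 1.83 at E14.5 (34.6%) and 2.36 at E16.5 (37.2%), where the medians over all genes were -0.04, -0.02 and 0. The E16.5 differences ran from 1.17 for Atp5g2 to 3.30 for Atp5g1. Next to Atp5g1 came Cox5a (3.26), which encodes a matrix-facing subunit of complex IV, Ndufs1 (3.07), Cyc1 (3.06), the haem-carrying cytochrome of complex III, and Atp5g3 (2.98). Cox5a stood at 2900 and 2624 nuclear CPM in cardiomyocytes and at 361 and 336 in other cells. At the low end Atp5g2 was followed by Ndufa7 (1.37) and Ndufb3 (1.52). Atp5g2 was also the lowest at E12.5 (0.45) and E14.5 (0.82). By complex, the ratio of cardiomyocyte to other-cell share at E16.5 was 3.86 in both libraries for complex I, 4.79 and 4.86 for complex II, 4.77 and 4.82 for complex III, 5.08 and 5.04 for complex IV, and 4.34 and 4.33 for complex V. For the mt- share of the summed UMIs, the same ratio was 2.07 and 2.03 for E10.5, 1.53 and 1.60 for E12.5, 1.12 and 1.21 for E14.5, 1.05 in both libraries of E16.5 and 3.87 for P3. The 2 barcode sets pooled in P3 differed in this respect, with mt- shares of 21.5% in cardiomyocytes and 7.90% in other cells of the first set, and 20.9 and 3.15% in the second. The sums of other cells include cells without a marker, whose mt- shares were 59.7 and 61.9% at E16.5. The median mt- share per cell at E16.5 was 10.7 and 11.1% in cardiomyocytes and 3.53 and 3.58% in other cells. Of the 13 mitochondrially encoded genes, 9 were called higher in cardiomyocytes at E16.5 and 0 lower, with a median log2 difference of 0.40. With the study's upper limits on the mt- share all 13 were higher (median 2.06), and with cells weighted equally all 13 were lower (-0.76).

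**Figure D3:**
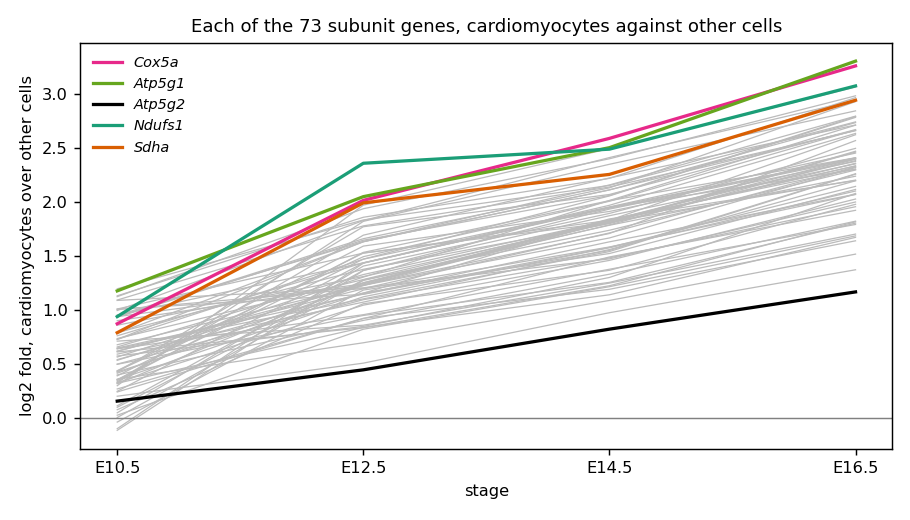
Each line is 1 of the 73 subunit genes; the height is its log2 fold of cardiomyocytes over other cells in the edgeR fit at the 4 tested stages. The lines climb from a median of 0.58 at E10.5, where the median of all genes was -0.40, to 2.36 at E16.5, where it was 0, with Atp5g2 the lowest from E12.5 on. Other cells came from embryos without head and limbs at E10.5 and from hearts at the later stages.

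The widening between classes from E12.5 to E16.5 was tested as an interaction. The change in cardiomyocytes exceeded that in other cells for all 73 genes (21% of all genes were called in that direction and 16.1% in the other), by a median of 1.00 on the log2 scale and by at least 0.71. Ndufa11 (1.40, SE 0.12, edgeR adjusted p = 8.41e-08), Cox6c (1.33, SE 0.10, edgeR adjusted p = 5.69e-09) and Ndufab1 (1.31), the mitochondrial acyl carrier protein, had the largest values. Uqcr11 (1.27), Atp5g1 (1.25) and Cox5a (1.24) came next. All 12 cardiomyocyte markers were also called higher in the interaction (median 0.81), and 3 of 4 mesenchymal (-0.84) and 2 of 4 epicardial markers (-0.52) lower. The part of these marker shifts in the result for the subunit genes was not tested. All 73 were called under each alternative tried, with medians between 0.83 and 1.22.

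Part of this widening lay in the other cells, a contrast added after the data were seen. Between E12.5 and E14.5, 70 of 73 subunit genes fell there (20.3% of all genes were called lower), with a median log2 change of -0.41. Uqcrc1 dropped from 152 and 146 nuclear CPM to 109 and 106 (log2 change -0.60, edgeR adjusted p = 2.23e-06), and Ndufb8 and Ndufs3 each by 0.63 on the log2 scale. Of the 12 cardiomyocyte markers, 10 fell in the other cells in the same comparison, with a median of -0.80. All 4 mesenchymal markers (median 0.94) and all 5 macrophage markers (median 2.13) rose there, with mesenchymal sums of 862 and 918 nuclear CPM in E12.5 and 1912 and 1869 in E14.5, and macrophage sums of 95.9 and 43.1, then 379.9 and 294. The parts of RNA from cardiomyocytes and of the changed mix of other cells in the fall of the subunit genes were not tested. From E14.5 to E16.5, 12 subunit genes were called higher in other cells and 0 lower, a share near the 13.2% of all genes called higher. The largest change was that of Ndufa13 (0.39, edgeR adjusted p = 0.0011). That direction depended on settings: 29 genes were lower and 1 higher with cardiomyocytes taken at 3000 CPM, which moves dim cardiomyocytes into the other class, and 10 were lower and 2 higher with library totals in place of TMM factors. The count also moved with single libraries, to 25 and 30 without replicate 1 or 2 of E12.5, to 3 and 1 without replicate 1 or 2 of E14.5, and to 1 and 19 without replicate 1 or 2 of E16.5, all higher. From E12.5 to E16.5, 54 fell and 0 rose (25.8% of all genes were called lower), a count that also moved when single libraries were left out. In the same sums all 4 mesenchymal (median 2.11) and all 5 macrophage markers (3.15) were higher. Of the 12 cardiomyocyte markers 7 were lower and 1 higher (-0.61). The part of these shifts was not tested.

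Parts of the other cells could be set apart by marker genes. Cells with at least 500 CPM of the endothelial markers Cdh5, Pecam1, Egfl7 and Emcn gave subunit shares of 3.18 and 3.11% for E12.5, 2.73 and 2.62% for E14.5 and 2.83 and 2.75% for E16.5. Cells with at least 1000 CPM of the mesenchymal markers Col1a1, Col3a1, Postn and Dcn gave 3.19 and 3.18%, then 2.69 and 2.68%, then 2.71 and 2.62%. Both groups were lower at E14.5 than at E12.5 in every library. Other cells that passed no marker gate gave 3.61 and 3.85% for E12.5, 3.55 and 3.90% for E14.5 and 3.65 and 3.63% for E16.5, and held mt- shares of 9.61 and 10.2%, 52.9 and 43.7%, and 59.7 and 61.9%. Their median UMI count at E16.5 was 3529 and 3100. Their Tnnt2 stood at 482 and 462 CPM of all UMIs there, against 159 and 161 in the endothelial and 180 and 156 in the mesenchymal cells. The Tnnt2 limit was set on all UMIs, mitochondrially encoded ones included. Whether cells without a marker include cardiomyocytes was not tested. In the endothelial cells the mt- share moved only from 3.67 and 3.63% at E12.5 to 3.75 and 4.18% at E16.5.

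The 3 genes of subunit c were followed one by one. Atp5g1 had the highest level of the 3 in cardiomyocytes at every stage. It stood at 1801 nuclear CPM in E8.5, 2095 and 2110 in E10.5, 3033 and 2827 in E12.5, 3186 and 3174 in E14.5, 4693 and 4479 in E16.5 and 5149 in P3. The E16.5 and P3 values lie above all earlier ones. In other cells its level was 878 in E8.5, 571 and 552 in E16.5 and 481 in P3. Atp5g3 in cardiomyocytes went from 1002 in E8.5 to 2329 and 2261 in E16.5 and 3327 in P3, and stayed between 350 and 415 in other cells at every stage. Atp5g2 remained between 1158 and 1678 in cardiomyocytes and between 754 and 1211 in other cells, where its level was the highest of the 3 at every stage. From E14.5 to E16.5 the log2 fold changes in cardiomyocytes were 0.69 for Atp5g1 (SE 0.08, edgeR adjusted p = 3.35e-06), 0.56 for Atp5g3 (SE 0.08, edgeR adjusted p = 2.38e-05) and 0.26 for Atp5g2 (SE 0.08, edgeR adjusted p = 0.0156). The call of Atp5g2 was lost with library totals in place of TMM factors (0.06), with cells weighted equally (0.24), without either library of E14.5 (0.27 and 0.26) and without replicate 1 of E16.5 (0.22). The differences between the 3 genes were not tested.

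**Figure D4:**
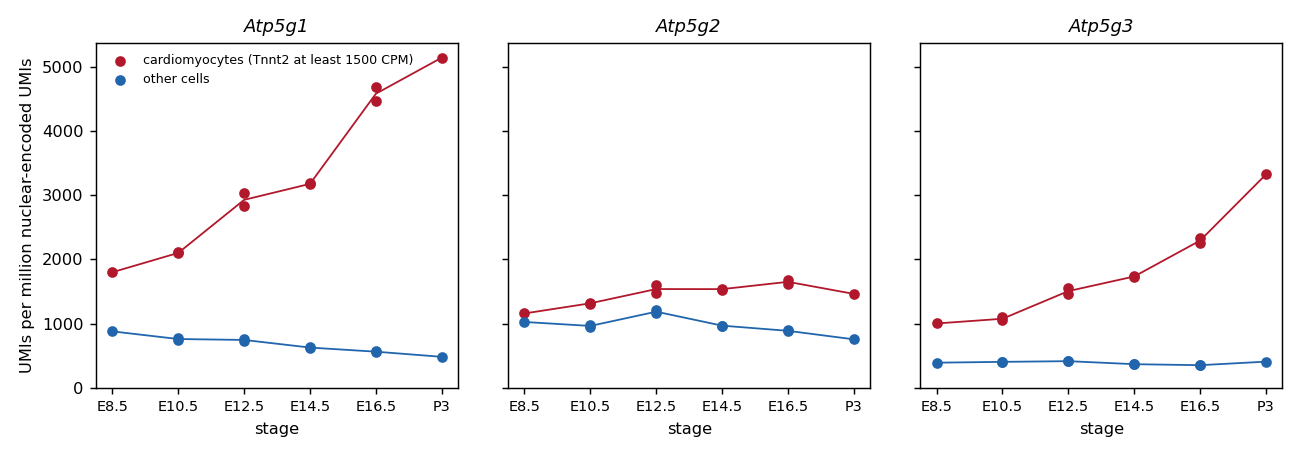
Levels of Atp5g1, Atp5g2 and Atp5g3, the genes of ATP synthase subunit c, in nuclear CPM by stage in cardiomyocytes (red) and other cells (blue), 1 point per library or matrix and lines through stage means. Atp5g1 and Atp5g3 rose in cardiomyocytes to 5149 and 3327 at P3, whereas Atp5g2 stayed below 1700 in both classes.

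Within a library the nuclear share varied with the mt- share of the cell. Cardiomyocytes were grouped by mt- share, and groups under 20 cells were left out. At E12.5 the subunit genes gave 7.28 and 7.11% of nuclear-encoded UMIs at an mt- share of 1 to 5%, 8.13 and 7.86% at 5 to 10%, 8.94 and 8.65% at 10 to 15%, 9.06 and 8.72% at 15 to 20%, and 7.44 and 7.79% at 20% and above. At E14.5 the highest values, 8.60 and 8.62%, were at 5 to 10%. E16.5 peaked at 10 to 15% with 12.75 and 12.24% and gave 10.48 and 9.77% at 20% and above. In these stages the cells at 20% and above had far fewer UMIs, with medians of 5173 and 4089 at E16.5 against 20058 and 15704 at 10 to 15%. P3 showed no such turn over these groups. Its subunit share was 5.34% at 1 to 5%, 8.67% at 5 to 10%, 10.54% at 10 to 15%, 13.04% at 15 to 20% and 14.64% at 20% and above, and the last group held 4464 of the 7145 cells with a median of 14945 UMIs. Tnnt2 rose over the same groups, from 5843 to 11498 nuclear CPM. The first P3 group held 58 cells. With cardiomyocytes taken at 3000 CPM of Tnnt2 it held 29 and gave 8.12%, close to the 8.95% of the next group. The group at 20% and above has no upper limit. In it the subunit genes made up 10.9% of all UMIs at P3 and 5.91 and 5.92% at E16.5, so its mt- shares ran higher at E16.5. A turn at higher mt- shares in P3 could not be seen with these groups. Barcodes with high Tnnt2 but an mt- share under 1% were left out of all of the above. They made up 33.4 and 32.9% of Tnnt2-high barcodes in E12.5, 16.9 and 15.4% in E14.5, 8.52 and 6.42% in E16.5 and 0.432% in P3. Their subunit share was 7.45 and 7.64% in E12.5, 8.56 and 8.32% in E14.5 and 10.4 and 9.68% in E16.5, with mt- shares between 0.163 and 0.361%.

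**Figure D5:**
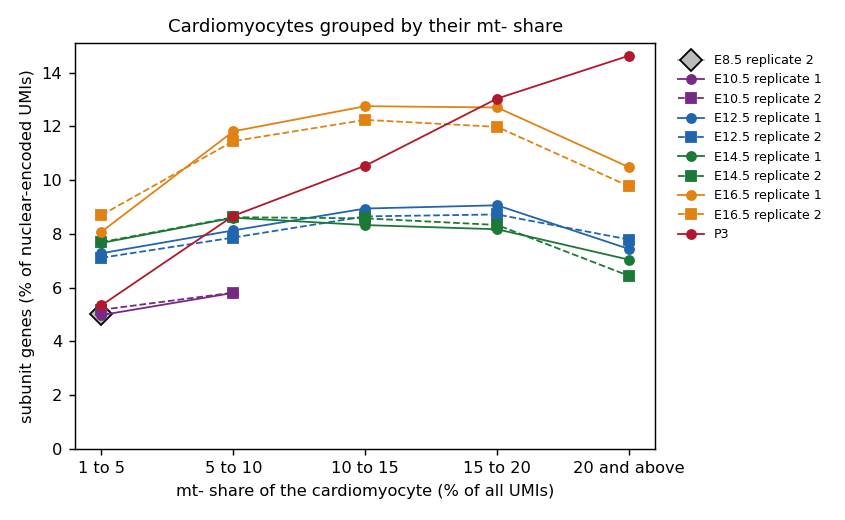
Share of nuclear-encoded UMIs from the 73 subunit genes in cardiomyocytes grouped by their mt- share, 1 line per library; groups under 20 cells are not drawn, so E8.5 is a single point. The lines of E12.5 to E16.5 fall in the last group, to 7.44 and 7.79% at E12.5, while P3 climbs to 14.64%. The last group has no upper limit, and its mt- shares ran higher at E16.5 than at P3.

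Other genes of the pathway were counted from lists. The 17 enzymes of the tricarboxylic acid cycle, which supplies NADH and succinate, were counted in the same comparisons, and 17 were higher at E12.5 than at E10.5, 5 at E14.5 than at E12.5, and 17 at E16.5 than at E14.5, with 0 lower in each. Idh2, a mitochondrial isocitrate dehydrogenase, had log2 changes of 2.32, 0.33 and 0.50, and the malate dehydrogenase Mdh2 had 1.34 in the first and 0.42 in the last. The list of ADP and electron carriers was mixed. It also held Usmg5, an ATP synthase subunit left out by the symbol rule, and Atpif1, an inhibitor of that enzyme. The 13 genes of this list gave 12, 4 and 12 higher, with 0 lower. The most abundant of those called, the adenine nucleotide translocator Slc25a4, changed by 0.62 and 0.60 in the first and last comparison, where the medians of the list were 0.75 and 0.51. Of 8 tissue isoforms of cytochrome oxidase, 7 rose in the first and last comparison and Cox4i2, known as the lung isoform, fell in each (-1.38, -1.26 and -1.49). Assembly factors, which build the complexes and are not part of them, gave 12 higher and 3 lower of 40, then 5 and 2, then 22 and 0. Over all genes, 16.2% were called higher and 13.4% lower in the first comparison, 18.2 and 15.9% in the second, and 19.9 and 19.2% in the third, so the assembly factors lay below both shares in the second. Of their calls in the second comparison, 5 of 8 were lower without the mt- floor, 4 of 7 with cardiomyocytes taken at 750 CPM, and 7 of 11 without replicate 2 of E12.5. Cox20, which assists assembly of complex IV, rose in all 3 comparisons (0.40, 0.49 and 0.91). Of 15 tested regulators of mitochondrial biogenesis, 3 rose (a share near that of all genes) and 1 fell in the first comparison. From E12.5 to E14.5, 7 rose and 2 fell, and from E14.5 to E16.5, 7 rose and 4 fell. With DESeq2 the only call in the first comparison was lower, and with library totals most calls in the last were lower. Ppargc1a, which encodes the coactivator PGC-1alpha, read 82.3 and 83.9 nuclear CPM in E12.5, 150 and 153 in E14.5 and 163 and 152 in E16.5, with a log2 change of 0.84 in the second comparison (SE 0.07, edgeR adjusted p = 8.8e-08). Its receptor partner Esrra (ERRalpha) changed by 0.35 in that comparison.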

How the data were processed

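Single-cell 3′ RNA sequencing had been run on wild-type C57Bl/6J mouse embryos and hearts. The authors deposited raw UMI counts as gene by barcode matrices (10 used here, mm10). Their processing notes list Cell Ranger 2.1.1 and Seurat 3.1.1, whereas the matrix headers name versions 3.0.0 and 3.1.0. The P3 matrix listed 10964 barcodes, while each other matrix listed 737280. The part of these differences in the results was not tested. The labels and the study's methods differ on the enzyme (trypsin or collagenase) and on the chemistry version. The counts were not normalized.

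UMIs were summed per library and class, for barcodes with at least 2000 UMIs and an mt- share of at least 1%. No doublet caller was run. An alternative left out cardiomyocytes with other classes' markers. The sums were tested with edgeR 4.0.16 (quasi-likelihood, TMM factors, Benjamini-Hochberg adjustment over all genes, threshold 0.05), on cardiomyocyte sums for stages and on both classes' sums for class differences and the interaction. The script was tested on simulated data. DESeq2 1.42.0 was an alternative. The library was the replicate, and 2 libraries per stage limit the precision. Depth limits scarce genes too: the E10.5 cardiomyocyte sums held 14 and 11 UMIs of Atp5s.

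The 73 genes and the lists were chosen with earlier results of these data known. Genes were named by rule: the 3 highest of each complex, up to 6 of the largest called changes of each contrast, the Atp5g genes and Ndufa4, genes called against the rest, and the 3 most abundant called genes of a list. Others were named after their values were seen. Replicate numbers were not taken as pairs of stages, since their deviations correlated between -0.0186 and 0.130 over 14483 genes.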

Additional observations from a re-analysis of the deposited data

Results flagged for a closer look

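From E12.5 to E16.5 the change in cardiomyocytes was higher than that in other cells for 73 of the 73 nuclear genes, by the interaction term of edgeR, with a median of 1.00 on the log2 scale, where 21% of all genes were called higher. In the same test 11 of the 13 mitochondrially encoded genes were lower, with a median of -0.42, where 16.1% of all genes were called lower. The second result depended on which barcodes were kept and on 1 library: without replicate 1 of E16.5, 6 were lower. With the study's upper limits on the mt- share 12 of the 13 were higher (median 1.01), with at least 5000 UMIs per barcode 10 were higher (0.46), and with cardiomyocytes taken at 750 CPM of Tnnt2 0 were called. The nuclear result was called for all 73 genes under each of these settings. Other cells that passed no marker gate held mt- shares of 59.7 and 61.9% at E16.5, and their part in the mitochondrial result was not tested. In the same interaction all 12 cardiomyocyte markers were called higher (median 0.81) and 3 of 4 mesenchymal markers lower (-0.84). The part of these markers' shift in the nuclear result was not tested.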

How the results depend on the processing

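The counts of subunit genes called kept their direction and stayed within 1.5 times in 203 of 237 recomputations. The named subunit genes kept direction and call in 674 of 700, with 26 calls lost and 0 reversed. These tallies include recomputations without a library that was in neither group compared. Most of these genes were named for large called changes in the same fits, so their agreement is partly built in. For cardiomyocytes at E14.5 against E12.5, 2 genes were called. The count was 5 with DESeq2, 4 with library totals, 1 with mt- genes dropped before scaling, 6 with the replicate block, 14 with the study's mt- ceilings, 1 with Tnnt2 at 750 CPM or at 3000 CPM, 5 with other-class cells left out and 0 with cells weighted equally, and it ran from 0 to 17 when single libraries were left out. The block moved no other count by over 1.5 times. For other cells at E16.5 against E14.5, 12 were called. The count was 22 with DESeq2, 21 without a filter on low counts, 23 without the mt- floor, 21 with the mt- ceilings, 19 with at least 5000 UMIs, 24 at 750 CPM, 22 with other-class cells left out and 7 with cells weighted equally. It reversed with library totals (12, of which 10 lower) and at 3000 CPM (30, of which 29 lower), and ran from 1 to 30 when single libraries were left out. For other cells at E16.5 against E12.5 leaving out single libraries gave 32 to 56, with 32 without replicate 2 of E16.5.

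With all UMIs as the denominator the cardiomyocyte share was 4.89% at E8.5 and 10.6% at P3, and the P3 difference between cells at 20% mt- and above and cells at 5 to 10% was 3.01 percentage points. Among nuclear-encoded UMIs, taking cardiomyocytes at 3000 CPM of Tnnt2 gave a share of 5.32% at E8.5 (5.03% at 1500 CPM) and of 13.5% at P3 (13.46%), and a P3 difference of 5.71 points (14.64 against 8.67% at 1500 CPM). Among the lists, the mitochondrially encoded class difference reversed with cells weighted equally (3 lower at E12.5, 12 at E14.5, 13 at E16.5) and was mixed at 3000 CPM at E16.5 (3 called, 2 lower). Its interaction reversed with the mt- ceilings (12 higher) and at 5000 UMIs (10 higher). Assembly factors at E14.5 against E12.5 gave 8 calls without the mt- floor, 7 at 750 CPM and 11 without replicate 2 of E12.5, mostly lower. Biogenesis regulators gave 1 call, lower, with DESeq2 at E12.5 and 8 with library totals at E16.5, 5 of them lower. The causes were not tested. With library totals the share of calls that were higher moved from 54.7 to 43.8% (E12.5 against E10.5; 44.4% with DESeq2), from 50.9 to 29.1% (E16.5 against E12.5), from 35.8 to 50.3% (classes at E10.5), from 50.1 to 38.0% (classes at E16.5) and from 56.6 to 37.7% (interaction; 46.5% with DESeq2).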
